A study of Homo sapiens with 12 samples.

Results

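Phosphofructokinase-1 and the bifunctional enzymes that set its main activator are encoded by 6 genes analysed here: PFKL, PFKM and PFKP for the liver, muscle and platelet subunits of phosphofructokinase-1, and PFKFB2, PFKFB3 and PFKFB4 for the bifunctional enzymes. They were taken by symbol and make up 6 of the 26475 gene symbols in the count table. All 6 passed the filter on low counts that left 14582 genes for testing. RNA-seq was performed on MIAPaCa2, an established pancreatic ductal adenocarcinoma (PDAC) cell line, in 4 groups of 3 libraries. Parental cells and oxamate-resistant cells, which were grown out of the parental line under continued oxamate, were each treated with vehicle (given as untreated in the sample labels) or with oxamate (given as an LDHA inhibitor). Oxamate competes with pyruvate at lactate dehydrogenase A (LDHA). The resistant cells were the survivors of 1 parental line rather than an isolated clone as far as the sources say, no gene was engineered in any group, and the time under oxamate before RNA was taken is not given for the RNA-seq samples.

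Phosphofructokinase-1 phosphorylates fructose-6-phosphate to fructose-1,6-bisphosphate, the committed step of glycolysis, and works as a tetramer of the 3 kinds of subunit. Its strongest allosteric activator in most tissues is fructose-2,6-bisphosphate, which the PFKFB enzymes make with a kinase domain and break down with a phosphatase domain. PFKFB3 is known for a high kinase activity relative to its phosphatase activity, both PFKFB3 and PFKFB4 are known as genes induced by hypoxia-inducible factor (HIF), and both are often raised in tumors.

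The genes lie apart from one another except for a pair on the short arm of chromosome 10. In GRCh38, PFKP spans chr10:3066333-3137712 and PFKFB3 chr10:6144934-6254644, both on the plus strand. PFKFB4 spans chr3:48517684-48562015 on the minus strand, and PFKFB2 (chr1:207034366-207081024), PFKM (chr12:48105139-48146404) and PFKL (chr21:44300051-44327376) are on the plus strand. The values below count reads over the exons of each gene as a whole, so transcript isoforms, including those of PFKFB3 that differ at their ends, were not told apart.

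Because HIF is known to bind the core of the hypoxia response element, ACGTG or GCGTG, the stretches upstream of the start sites of PFKFB3 and PFKFB4 are shown here, since these are the members whose levels moved most. The bases come from RefSeq (GRCh38.p14), are read along the strand of the gene, leave out all annotated exons, and carry matches to the core on either strand in capitals. The PFKFB4 stretch lies inside the gene span given above. The upstream end of that span, chr3:48562015, was not covered by a RefSeq window.

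PFKFB3, distal start, chr10:6144671-6144920: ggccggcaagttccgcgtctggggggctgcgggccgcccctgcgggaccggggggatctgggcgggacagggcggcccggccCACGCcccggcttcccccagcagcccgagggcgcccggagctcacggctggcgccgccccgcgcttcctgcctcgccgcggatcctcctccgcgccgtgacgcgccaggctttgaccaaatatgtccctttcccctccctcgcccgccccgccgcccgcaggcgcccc
PFKFB3, proximal start, chr10:6202694-6202865: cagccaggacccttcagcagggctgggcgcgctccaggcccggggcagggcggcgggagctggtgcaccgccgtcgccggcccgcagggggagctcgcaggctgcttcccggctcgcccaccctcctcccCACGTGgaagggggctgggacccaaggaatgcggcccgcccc
PFKFB4, chr3:48556924-48556982: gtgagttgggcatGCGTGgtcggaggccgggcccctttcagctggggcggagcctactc

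In the proximal PFKFB3 stretch the 2 matches overlap in a palindrome that reads as the core on both strands. RefSeq windows, which ran from 250 bases before a start to 50 after it, were at hand for 15 starts of 5 members, and 8 of the 15 held a match to the core. Such a match was found in 48.4% of all 35116 windows of that length, so such a match is common. By gene, 2 of 2 windows of PFKFB3, 1 of 1 of PFKFB4, 1 of 1 of PFKL, 2 of 4 of PFKP and 2 of 7 of PFKM, several of which overlap, held a match. PFKFB2 was not among the windows.

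The libraries held 46698729 to 114222169 expected counts, and every parental library was deeper than every oxamate-resistant library. Levels are given as CPM, counts scaled to a common library size with TMM factors, and 3 counts, taken as the floor, correspond to 0.0283 to 0.0581 CPM. Every member was far above it, the lowest being PFKFB2 with at least 579 counts in each library. The keratins KRT8, KRT18 and KRT19 and the mesenchymal VIM were abundant in all groups, whereas EPCAM, CDH1 and PTPRC had at most 3 counts in any library. Summed over the 6 markers of other cell types, the level was 31.5 to 39.1 CPM in parental and 15.1 to 15.9 CPM in oxamate-resistant libraries, nearly all of it COL3A1, whose part in the results between the lines was not tested. The sources do not say whether the libraries of a group came from separate cultures, so the p-values measure the spread between these libraries, which may be technical. In bulk RNA, fewer cells expressing a gene and less of its RNA per cell cannot be told apart.

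**Figure D1:**
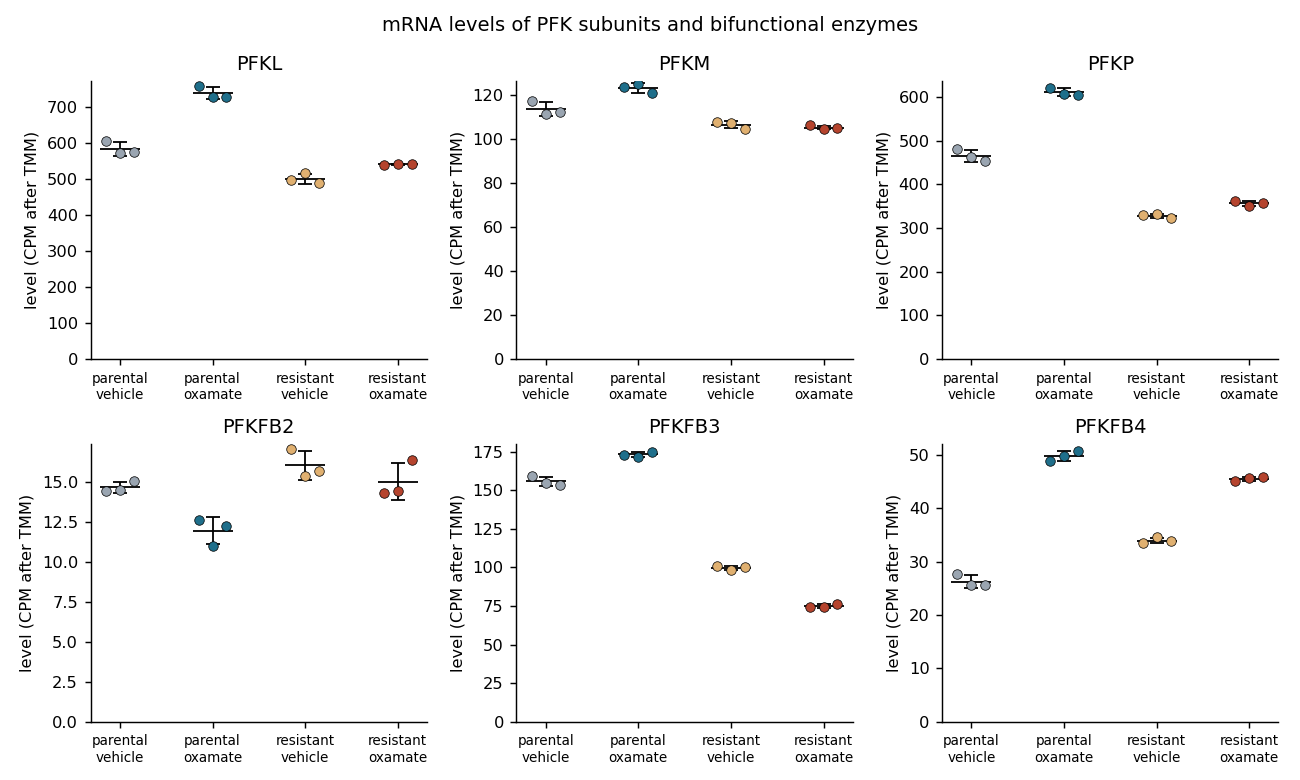
Level of each of the 6 genes (CPM after TMM, y axis from 0) in the 4 groups (x axis). Points are single libraries, and the bar and whiskers give the mean ± SD of 3. PFKFB3 was lowest in oxamate-treated resistant cells (74.1 to 76.2 CPM), and PFKFB4 was higher after oxamate in both lines.

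The first question was how parental cells, which are sensitive to the drug, adjusted this step when LDHA was inhibited. PFKFB4 rose 1.89-fold, PFKP 1.31-fold and PFKL 1.27-fold, PFKFB3 and PFKM rose by less, and PFKFB2 fell. PFKFB4 was the 1 member differentially expressed at a change of over 1.5-fold and a p under 0.05 before adjustment in edgeR's quasi-likelihood test, a criterion that 9.88% of all genes passed and 5.69% passed as higher. At a Benjamini-Hochberg adjusted p under 0.05, 5 members were higher and 1 lower, against 28.3% and 30.4% of all genes. The median log2 fold change of the 6 was 0.25, beside 0.0030 over all genes.

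Among the subunits of phosphofructokinase-1, PFKP stood at 480.0, 462 and 452 CPM in the vehicle-treated and at 622, 607 and 605 CPM in the oxamate-treated libraries. PFKL, the subunit prominent in liver, stood at 605, 572 and 575 CPM and at 759, 729.7 and 729 CPM. All treated libraries lay above all vehicle-treated ones for both genes. The log2 fold changes were 0.39 for PFKP (SE 0.03, adjusted p = 4.61e-09) and 0.34 for PFKL (SE 0.03, adjusted p = 5.36e-08, edgeR with Benjamini-Hochberg adjustment). PFKM, the muscle subunit, moved from 117, 111 and 112 CPM to 123, 125 and 121 CPM, a log2 fold change of 0.11 (SE 0.03, edgeR adjusted p = 0.00122) that did not pass with library size alone (0.04, adjusted p = 0.132). Its groups did not overlap with TMM scaling, which was also the case for 61.5% of all genes in this comparison. PFKM was the only member with expected counts that were not whole numbers, so part of its reads also matched other transcripts.

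The bifunctional enzymes split by isozyme. PFKFB4 stood at 27.7, 25.6 and 25.6 CPM with vehicle and at 48.9, 49.8 and 50.8 CPM with oxamate, so its lowest treated library was far above its highest control. The log2 fold change was 0.92 (SE 0.03, adjusted p = 1.72e-11, edgeR's quasi-likelihood fit, Benjamini-Hochberg adjusted). PFKFB3 moved from 159, 155 and 153 CPM to 173, 172 and 175 CPM, a small shift in which the groups stayed apart. Its log2 fold change was 0.15 (SE 0.02, edgeR adjusted p = 3.49e-05). PFKFB2, the isozyme prominent in heart, fell from 14.5, 14.5 and 15.1 CPM to 12.6, 11.0 and 12.3 CPM. It was the only member that decreased, with a log2 fold change of -0.29 (SE 0.06, edgeR adjusted p = 0.000772). PFKFB1, the isozyme of liver and muscle, had 2 to 9 counts per library across all 12 libraries and was not tested.

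The nuclear-retained RNAs MALAT1, NEAT1, KCNQ1OT1 and MIAT together ran from 321 to 357 CPM in the vehicle-treated and from 544 to 1187 CPM in the oxamate-treated parental libraries, the third of the latter being the highest. In resistant cells they ran from 534 to 1112 CPM after vehicle, the third library being the highest, and from 1080 to 1407 CPM after oxamate, with a median log2 fold change of 0.77 and 1 of the 4 higher at an adjusted p under 0.05 (4 of 4 in parental cells, median 1.26). With the third library of each of those groups, oxamate-treated parental and vehicle-treated resistant, left out, a choice made after seeing the data, the log2 fold change of PFKFB4 in parental cells was 0.91 and that of PFKFB3 in resistant cells -0.41. The part of nuclear-retained RNA in the changes of the members was not tested.

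The second question was whether cells already resistant to oxamate still responded. PFKFB3 now fell 1.33-fold while PFKFB4 rose 1.34-fold, so the isozymes changed in opposite directions and their levels came closer to each other. None of the 6 members was differentially expressed at the threshold of 1.5-fold, which 2.50% of all genes passed. That share rests on 365 genes and became 570 genes without the third vehicle-treated resistant library, and the member count was 0 in both fits, as it was with DESeq2. At an adjusted p under 0.05, 3 members were higher and 1 lower, against 9.01% and 12.5% of all genes, and at an unadjusted p under 0.05 the same 4 passed. The median log2 fold change of the 6 was 0.05.

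PFKFB3 stood at 101, 98.4 and 100.2 CPM after vehicle and at 74.5, 74.1 and 76.2 CPM after oxamate. Every treated library was below every control, and the log2 fold change was -0.41 (SE 0.02, adjusted p = 2.54e-08, edgeR's quasi-likelihood fit, Benjamini-Hochberg adjusted). PFKFB4 stood at 33.5, 34.6 and 33.9 CPM and rose to 45.1, 45.6 and 45.8 CPM. Its log2 fold change was 0.42 (SE 0.03, edgeR adjusted p = 6.39e-07), again with no overlap, a separation that 41.0% of all genes showed here. PFKFB2 stood at 17.1, 15.4 and 15.7 CPM against 14.3, 14.4 and 16.4 CPM, and these groups overlapped (log2 fold change -0.09, SE 0.06, edgeR adjusted p = 0.310).

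The subunits changed little in resistant cells. PFKP stood at 331, 331 and 323 CPM and rose to 362, 351 and 357 CPM, a log2 fold change of 0.12 (SE 0.03, edgeR adjusted p = 0.00496). PFKL rose from 498, 516 and 489.9 CPM to 541, 542 and 542 CPM, a log2 fold change of 0.11 (SE 0.03, edgeR adjusted p = 0.0109). Both groups of libraries were separate for each gene. PFKM overlapped between treatments, at 107, 107 and 104 CPM against 106, 104 and 105 CPM, with a log2 fold change of -0.02 (SE 0.03, edgeR adjusted p = 0.672) whose sign turned with upper-quartile factors and with library size alone (0.0063 and 0.013).

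The oxamate responses of the lines were then compared directly as a contrast of the same model. The response was lower in resistant cells for 5 of 6 members at an adjusted p under 0.05, a mark that 44.2% of all genes reached, 21.4% of all genes with a lower response. For PFKFB3 the difference was -0.57 on the log2 scale (SE 0.03, adjusted p = 7.71e-09, edgeR with Benjamini-Hochberg adjustment). For PFKFB4 it was -0.50 (SE 0.05, edgeR adjusted p = 7.46e-07). No member differed by more than 1.5-fold, as 7.52% of all genes did, PFKFB3 coming nearest at 1.48-fold. PFKP (-0.27), PFKL (-0.23) and PFKM (-0.13) followed, and PFKFB2 gave 0.20 (SE 0.09, edgeR adjusted p = 0.0779). PFKFB3 was the member with an adjusted p under 0.05 and opposite signs in the separate comparisons, a pattern shown by 810 genes, or 5.55% of those tested.

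**Figure D2:**
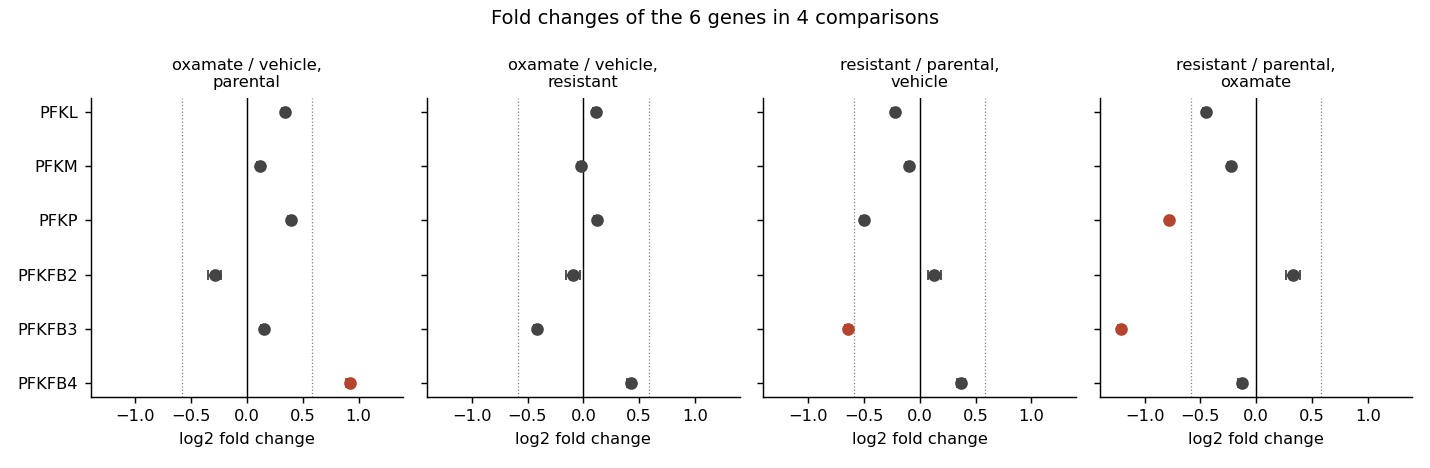
Log2 fold change (x axis) of each gene (y axis) in 4 comparisons, from edgeR's fit over 12 libraries, with whiskers for the SE derived from its F statistic. Red marks genes past 1.5-fold (dotted lines) at an unadjusted p under 0.05, which were PFKFB4 in parental cells after oxamate, PFKFB3 in both comparisons between the lines, and PFKP between the lines after oxamate.

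The third question was how resistant cells differed from parental cells. These comparisons use the same libraries as the oxamate comparisons and are not independent of them. After vehicle, PFKFB3 was 1.56-fold and PFKP 1.42-fold lower in resistant cells, and PFKFB4 was 1.29-fold higher. After oxamate, PFKFB3 was 2.31-fold and PFKP 1.71-fold lower. Differential expression at the 1.5-fold threshold held for 1 member after vehicle, PFKFB3, where 23.4% of all genes passed and 6.14% were lower. With upper-quartile factors no member passed after vehicle (PFKFB3 at -0.57), and with library size alone PFKFB4 passed as higher in its place. It held for 2 members after oxamate, PFKFB3 and PFKP, where 34.3% passed and 11.4% were lower, but with library size alone PFKP did not pass and PFKFB2 passed as higher. At an adjusted p under 0.05, 1 member was higher and 4 lower after vehicle (38.4% and 37.3% of all genes), and 1 was higher and 5 lower after oxamate (40.6% and 39.7%). The median log2 fold changes of the members were -0.16 and -0.34, beside 0.03 and 0.01 for all genes.

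For PFKFB3 the log2 fold changes were -0.64 after vehicle (SE 0.02, adjusted p = 1.38e-12) and -1.21 after oxamate (SE 0.02, adjusted p = 6.16e-16, edgeR with Benjamini-Hochberg adjustment). All 6 resistant libraries, 74.1 to 101 CPM, lay below all 6 parental libraries, 153 to 175 CPM. For PFKP they were -0.50 (SE 0.03, edgeR adjusted p = 6.82e-11) and -0.78 (SE 0.03, edgeR adjusted p = 1.78e-13). The 6 resistant libraries of PFKP, at 323 to 362 CPM, were likewise below the parental ones, which began at 452 CPM. Groups that did not overlap were found for 77.6% of all genes after vehicle and for 81.2% after oxamate.

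Of the 4 epithelial markers tested, 3 were lower and KRT7 was higher in resistant cells after either treatment at an adjusted p under 0.05. KRT7 was scarce, with 10 to 52 counts per library. The log2 fold changes of KRT8 were -1.11 after vehicle and -1.04 after oxamate, those of KRT19 -0.99 and -1.05, those of KRT18 -0.69 and -0.83, and those of VIM, which was lower too, -0.59 and -0.72. Of the 4 nuclear-retained RNAs, 3 were higher in resistant cells in each comparison, and the median of the 4 log2 fold changes was 1.16 with vehicle and 0.70 with oxamate. The part of either in the lower PFKFB3 and PFKP was not tested.

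How far the other members differed between the lines depended on how libraries were scaled. When library size alone replaced TMM, all genes together had a median log2 fold change of 0.24 after vehicle and 0.34 after oxamate, and under it PFKFB3 (-0.42 and -0.89) and PFKP (-0.28 and -0.45) were lower, with PFKFB3 past 1.5-fold only after oxamate. PFKL was -0.22 after vehicle and -0.45 after oxamate, and -0.0018 and -0.12 with library size alone. PFKM was -0.10 and -0.23, and turned to 0.12 and 0.10 with library size alone. PFKFB4 was 0.37 after vehicle (SE 0.03, edgeR adjusted p = 7.43e-08) and -0.13 after oxamate (SE 0.03, edgeR adjusted p = 0.00179), and with library size alone the former was 0.59, past 1.5-fold, and the latter turned to 0.19. PFKFB2 was 0.13 after vehicle (SE 0.06, edgeR adjusted p = 0.0592) and 0.33 after oxamate (SE 0.06, edgeR adjusted p = 0.000184), and was higher with library size alone too, at 0.35 and 0.65.

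Ratios of counts within a library do not depend on that scaling, and were taken after the levels had been seen. PFKFB4 gave 0.174, 0.165 and 0.167 counts per count of PFKFB3 in vehicle-treated parental cells and 0.283, 0.290 and 0.290 after oxamate. In resistant cells the ratio was 0.332, 0.351 and 0.338 after vehicle and 0.606, 0.616 and 0.602 after oxamate. The 4 groups did not overlap and ran in that order from lowest to highest. The log2 ratio rose with oxamate by 0.77 in parental and by 0.84 in resistant cells, and was higher in resistant cells by 1.01 after vehicle and by 1.08 after oxamate. Each of these gave p = 0.1 in a two-sided exact permutation test, the smallest p that 3 against 3 libraries allow. PFKP per count of PFKL was 0.796 ± 0.0106 and 0.827 ± 0.0072 in parental cells and 0.655 ± 0.0119 and 0.658 ± 0.0114 in resistant cells (vehicle and oxamate, SD, n = 3 each). The resistant ratios were all below the parental ones, and the resistant groups overlapped each other (exact permutation p = 0.8).

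**Figure D3:**
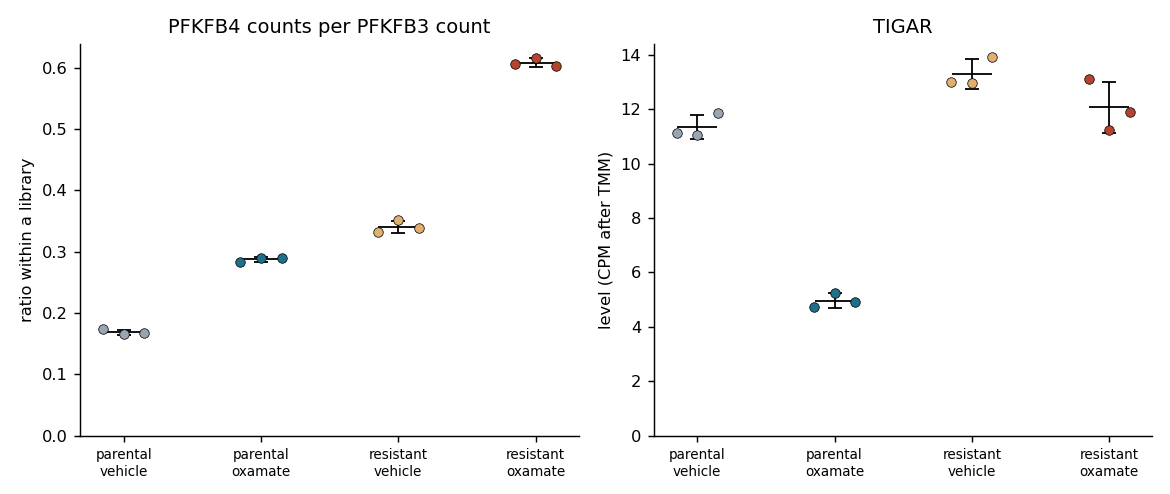
Left, counts of PFKFB4 per count of PFKFB3 in each library (y axis from 0) by group, rising from 0.165 to 0.174 in vehicle-treated parental cells to 0.602 to 0.616 in oxamate-treated resistant cells. Right, level of TIGAR (CPM after TMM, y axis from 0), lowest in oxamate-treated parental cells. Points are libraries, bars and whiskers the mean ± SD of 3.

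To compare isozymes with one another, CPM were divided by the length of the annotated exons of each gene in kilobases. Per kilobase, PFKP was the most abundant subunit in vehicle-treated parental cells at 96.1 ± 2.91, followed by PFKL at 65.4 ± 2.06 and PFKM at 15.5 ± 0.427 (SD, n = 3). The same order held in all 4 groups, with neighbours separated by more than their spread. PFKP thus made up 54.3% ± 0.333 of the subunit mRNA in vehicle-treated parental cells and 55.9% ± 0.141 after oxamate, against 49.0% ± 0.351 and 49.6% ± 0.387 in resistant cells (SD, n = 3). PFKL made up 37.0% ± 0.265 and 36.6% ± 0.243 in parental and 40.5% ± 0.448 and 40.8% ± 0.387 in resistant cells. The order of PFKP and PFKL depended on the length used, since without division by length PFKL took 50.2% and PFKP 40.0% in vehicle-treated parental cells. In either scale the PFKP share was lower in resistant cells.

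Among the bifunctional enzymes, PFKFB3 was the most abundant per kilobase in every group, then PFKFB4, then PFKFB2. PFKFB3 made up 81.6% ± 0.221 of bifunctional mRNA in vehicle-treated and 75.2% ± 0.160 in oxamate-treated parental cells, and 69.6% ± 0.333 and 57.8% ± 0.205 in resistant cells (SD, n = 3). PFKFB4 rose over the same groups from 13.8% ± 0.328 to 21.7% ± 0.279, 23.7% ± 0.568 and 35.2% ± 0.387. In oxamate-treated resistant cells PFKFB4 therefore made up more of the class than in any other group. PFKFB2 made up 4.62% ± 0.186 and 3.12% ± 0.207 in parental and 6.72% ± 0.339 and 6.96% ± 0.424 in resistant cells. Summed per kilobase, the class came to 31.2 ± 0.668 and 37.7 ± 0.446 CPM in parental and to 23.5 ± 0.184 and 21.2 ± 0.341 CPM in resistant cells. The subunits together came to 177 ± 5.26 and 226 ± 3.89 CPM per kilobase in parental and 139 ± 2.52 and 149 ± 1.195 in resistant cells.

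**Figure D4:**
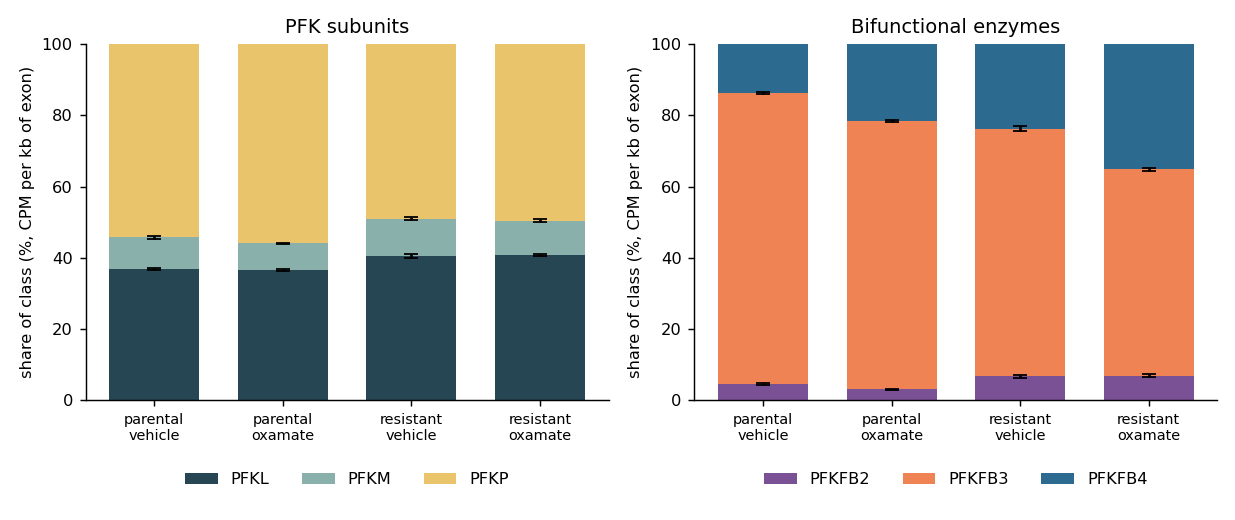
Share of each gene in its enzyme class (percent of CPM per kilobase of exon, y axis from 0 to 100) by group, subunits on the left and bifunctional enzymes on the right. Bars are means of 3 libraries, and whiskers at the borders give the SD of the lowest and of the top segment. The PFKFB4 segment grew from 13.8% in vehicle-treated parental to 35.2% in oxamate-treated resistant cells.

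Enzymes that work against these kinases were nearly absent but for TIGAR, a phosphatase that lowers fructose-2,6-bisphosphate and is known as a p53 target. FBP1 and FBP2, the fructose-1,6-bisphosphatases, had 0 counts in all 12 libraries, which allows at most 3 counts in each. TIGAR stood at 11.1, 11.0 and 11.9 CPM in vehicle-treated and at 4.74, 5.25 and 4.90 CPM in oxamate-treated parental cells, a 2.28-fold decrease (log2 fold change -1.19, SE 0.06, adjusted p = 6.70e-10, edgeR with Benjamini-Hochberg adjustment). In resistant cells it stood at 13.0, 13.0 and 13.9 CPM after vehicle and at 13.1, 11.2 and 11.9 CPM after oxamate, and the groups overlapped (log2 fold change -0.14, SE 0.06, edgeR adjusted p = 0.106). The responses differed by 1.05 on the log2 scale (SE 0.09, edgeR adjusted p = 2.17e-07), and after oxamate TIGAR was 2.43-fold higher in resistant than in parental cells. TIGAR and PFKFB3 thus lay on opposite sides between the lines, TIGAR higher and PFKFB3 lower in resistant cells after either treatment.

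The rest of glycolysis gave the setting for these changes. The list of other glycolytic enzymes was written with earlier results of these data known, and 16 of its 20 genes were tested. In parental cells after oxamate 15 rose at an adjusted p under 0.05 and none fell, with a median log2 fold change of 0.56. ALDOC (aldolase C, 1.09), GPI (glucose-6-phosphate isomerase, the step before phosphofructokinase-1, 0.86) and HK2 (hexokinase 2, 0.74) had the smallest p. PFKFB4 at 0.92 lay within the range of these, and the other 5 members lay below the median of the list. In resistant cells 12 rose and 2 fell, with a median of 0.19. PGK1 (phosphoglycerate kinase) and ALDOC rose by 0.43 each, and HKDC1, a hexokinase domain protein, fell by 0.65 on the log2 scale.

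Between the lines most of the same list was lower in resistant cells, by counts that rest on TMM scaling and were not read with library size alone. After vehicle 14 were lower and 1 higher (median -0.46), against 37.3% and 38.4% of all genes. After oxamate 15 were lower and 1 higher (median -0.93), against 39.7% and 40.6% of all genes. HK2 was -0.58 and -1.49 in the respective comparisons. LDHA, the target of the drug, stood at 1074 ± 13.6 and 1647 ± 87.6 CPM in parental and at 960.0 ± 13.7 and 1213 ± 13.4 CPM in resistant cells (SD, n = 3). LDHB, its partner subunit, was below the floor throughout.

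HIF targets outside glycolysis moved with PFKFB4 in parental cells, where all 13 tested of 14 listed rose at an adjusted p under 0.05, with a median log2 fold change of 0.69. NDRG1 (0.88), P4HA2 (0.81) and P4HA1 (0.83) had the smallest p, close to PFKFB4 at 0.92 and above PFKFB3 at 0.15. In resistant cells 6 rose, as PFKFB4 did, and 4 fell, as PFKFB3 did, with a median of 0.20. The targets with the smallest p were among those that fell: ADM (adrenomedullin, -1.96), ANKRD37 (-1.41) and DDIT4 (-0.49). All 13 were lower in resistant than in parental cells after oxamate, as 39.7% of all genes were, with a median of -0.82 and the smallest at -0.15. After vehicle 2 were higher and 8 lower, with a median of -0.31. These counts rest on TMM scaling and were not read with library size alone, under which all genes had a median of 0.34 after oxamate. HIF1A itself, the main oxygen-regulated subunit, changed by -0.08 in parental cells after oxamate (SE 0.02, edgeR adjusted p = 0.00952). Of the 7 HIF subunits and oxygen sensors, 2 rose, 2 fell and 3 did not pass the test there. These are mRNA levels, not levels of HIF protein, and the part of HIF in the changes of the members was not tested.

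**Figure D5:**
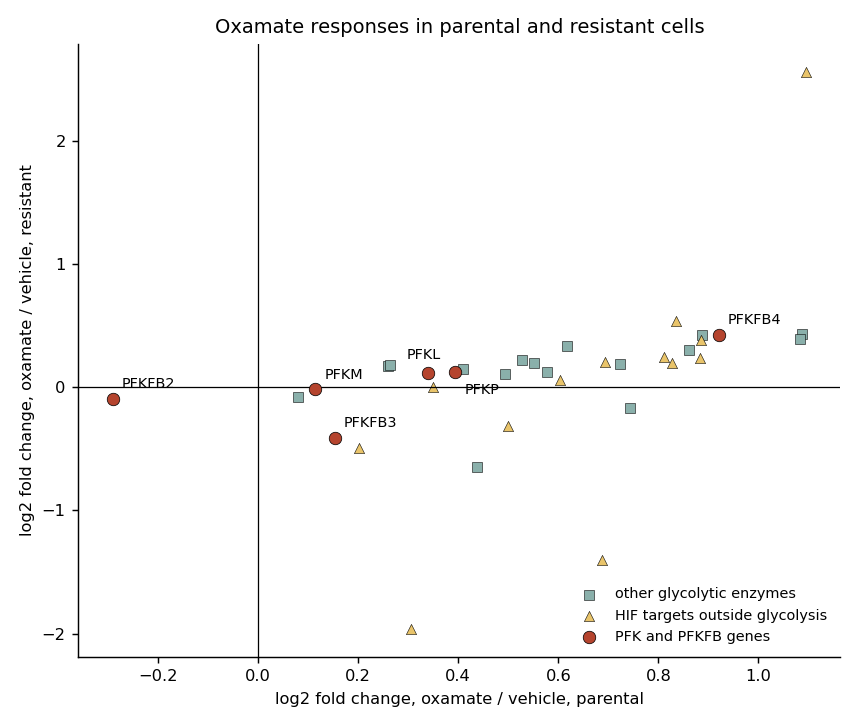
Log2 fold change after oxamate in parental cells (x axis) against that in resistant cells (y axis) for the PFK and PFKFB genes (red circles), other glycolytic enzymes (green squares) and HIF targets outside glycolysis (yellow triangles). No library is shared between the axes. PFKFB4 lay among genes that rose in both lines, and PFKFB3 in the quadrant of genes higher in parental (0.15) and lower in resistant cells (-0.41).

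Proteins that act on these enzymes after translation were also examined at the mRNA level. AMP-activated protein kinase (AMPK) phosphorylates PFKFB2 and PFKFB3 and thereby raises their kinase activity. Of 6 AMPK subunit genes tested, 1 rose and 4 fell in parental cells after oxamate, PRKAB1 (-0.46) and PRKAG2 (-0.32) among the latter, and 1 rose and 1 fell in resistant cells. After oxamate 4 were higher and 2 lower in resistant than in parental cells, with PRKAA1, a catalytic subunit, at 0.52 and PRKAB1 at 0.61. Ubiquitin ligases, or adaptors of such ligases, known to target PFKFB3 or PFKP were represented by 3 genes. In parental cells after oxamate BTRC fell by 0.31 and FZR1 rose by 0.17 on the log2 scale. None of the 3 passed the test in resistant cells (adjusted p = 0.394 to 0.582, edgeR). Between the lines, TRIM21, which targets PFKP, was higher in resistant cells by 0.60 after vehicle and 0.56 after oxamate on the log2 scale. BTRC was higher by 0.34 and 0.60, and FZR1 was lower (-0.15 and -0.35).

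Because PFKP and PFKFB3, the members lowest in resistant cells, lie on the same chromosome arm, the tested genes beside them were read as well. Of the 10 tested genes nearest to PFKFB3, 5 on each side, 0 were lower in resistant cells by the 1.5-fold threshold after either treatment, where edgeR gave 4 lower at an adjusted p under 0.05 after vehicle and 2 after oxamate. Their median log2 fold changes were 0.19 and 0.39, and the lowest was -0.45. PFKFB3, at -0.64 and -1.21, lay below all of them in both comparisons. Of the 10 genes nearest to PFKP, 3 were lower by the threshold after each treatment, with medians of -0.43 and 0.15. AKR1C1 (-1.15 and -1.06), KLF6 (-0.72 and -1.05) and IDI1 (-0.96 and -0.86) were the lower neighbours, and PFKP at -0.50 and -0.78 lay between them and PITRM1 next to it (-0.49 and -0.38).

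The genes whose levels most resembled each member were sought among 9623 genes that averaged 8 CPM or more, by Pearson's r of log2(CPM + 0.5) over the 12 libraries. These libraries fall into 4 groups and share their scaling, so r mostly reflects 4 group means and is a description only. PFKFB3 was most like SLC20A1, PLAU and RSRC2 (r = 0.997 to 0.998), and PFKFB4 most like H19, UNC93B1 and TRADD (r = 0.976 to 0.985). PFKL followed S100A4, LOXL2 and P4HB (r = 0.994 to 0.996), PFKP followed GUK1 and LPPR2 (r = 0.998 each), and PFKM followed EEFSEC, ARL6IP4 and OS9 (r = 0.988 to 0.989). PFKFB2 had the least close partners, ZNF142, MLXIP and CNOT4 (r = 0.938 to 0.945). Among the members, PFKL and PFKP ran nearly in parallel (r = 0.972), PFKP and PFKFB3 less so (r = 0.869), and PFKFB3 and PFKFB4 did not (r = -0.176).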

How the data were processed

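RNA-seq was available for 12 libraries of MIAPaCa2 cells in 4 groups of 3, grouped by the sample labels. According to the submitters' processing notes and the study's methods, the authors aligned reads with Bowtie2 2.1.0, estimated expected counts per gene with RSEM 1.2.15 (genome build hg38), and deposited these expected counts for 26475 symbols without normalization. The methods also name STAR and featureCounts, but 11.6% of the deposited values are not whole, as RSEM gives. Strandedness of the kit is not given in the sources used here, so antisense reads within a gene cannot be told apart. The members and gene lists were chosen with earlier results of these data known.

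Counts were rounded, filtered with filterByExpr and TMM-scaled, and all 12 libraries were fitted together with glmQLFit and glmQLFTest in edgeR 4.0.16 (R 4.3.3). Each SE of a log2 fold change is its absolute value divided by the square root of the F statistic of that test. Genes were differentially expressed when they changed over 1.5-fold with p under 0.05. The limits follow the study's methods, which used DESeq2 and do not say whether p was adjusted, and were applied here to edgeR's p before adjustment. The difference between responses was read at an adjusted p under 0.05 and over 1.5-fold. "Rose", "fell" and "lower" refer to an adjusted p under 0.05 (Benjamini-Hochberg, over 14582 genes). Floors cover counting error only. Alternatives used DESeq2 1.42.0, limma-voom (limma 3.58.1), other scalings, filters and thresholds, and libraries left out. Exon lengths and gene order came from GENCODE release 29 (GRCh38).

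The genes named were the 6 members, PFKFB1, FBP1, FBP2, TIGAR, LDHA and LDHB, of each list at most 3 genes with the smallest p in the comparison described, the 3 genes most like each member, and tested genes within 5 places of a member on its chromosome. A gene that this rule names is not reported here. The cell type markers and MALAT1, NEAT1, KCNQ1OT1 and MIAT lie outside this rule and were singled out with their values in view. The ATAC-seq and metabolite data were not analysed here.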

Additional observations from a re-analysis of the deposited data

Results flagged for a closer look

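The oxamate response differed between the lines for 5 members by the contrast of the responses, tested in edgeR with Benjamini-Hochberg adjustment. That mark, an adjusted p under 0.05, was reached by 44.2% of all genes. On the log2 scale the response of resistant minus that of parental cells was -0.57 for PFKFB3 (adjusted p = 7.71e-09), -0.50 for PFKFB4 (adjusted p = 7.46e-07) and -0.27 for PFKP (adjusted p = 2.04e-05). It was -0.23 for PFKL (adjusted p = 0.000229) and -0.13 for PFKM (adjusted p = 0.00824). PFKFB3 was the only 1 of these with opposite signs at an adjusted p under 0.05 in both lines, higher after oxamate in parental and lower in resistant cells. Opposite signs at that mark were shown by 5.55% of all genes. The oxamate-treated and vehicle-treated libraries of PFKFB3 did not overlap in either line. Such a separation was found for 61.5% of all genes in parental and 41.0% in resistant cells. For PFKM the difference was -0.03 (adjusted p = 0.531) when library size alone replaced TMM.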

How the results depend on the processing

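Without a fold threshold, the members at an adjusted p under 0.05 numbered 6, 4, 5, 6 and 5. These counts are for the parental, resistant, between-line (vehicle, then oxamate) and response comparisons, in that order. Of the 14582 genes tested, 8563, 3139, 11038, 11708 and 6438 passed in the same order, so passing between the lines was common. With upper-quartile factors 0 members were differentially expressed between the lines after vehicle, since PFKFB3 gave -0.57, just short of 1.5-fold. With library size alone, PFKFB4 (0.59) took the place of PFKFB3 (-0.42) there, and PFKFB2 (0.65) that of PFKP (-0.45) after oxamate; the cause was not tested. Signs reversed under library size alone for PFKM after vehicle (0.12) and oxamate (0.10) between the lines, for PFKFB4 after oxamate (0.19) and, with no call in either fit, for PFKM in resistant cells after oxamate (0.013, and 0.0063 with upper-quartile factors). Under library size alone, PFKM in parental cells (0.04), PFKL after vehicle between the lines (-0.0018) and the PFKM response difference (-0.03) no longer passed an adjusted p of 0.05. Of 30 values for the members, all kept their sign and side of an adjusted p of 0.05 with RLE factors, no filter, counts not rounded and DESeq2.

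With 1 library left out at a time, the members differentially expressed numbered 1 to 1, 0 to 0, 1 to 1, 2 to 2 and 0 to 0 in the same order, and PFKFB2 passed an adjusted p of 0.05 after vehicle between the lines in 3 of the fits. The replicate block gave 1, 0, 1, 2 and 0, and brought PFKFB2 under an adjusted p of 0.05 after vehicle (0.0395) and for the difference between responses (0.0463). The numbers were not treated as a pairing, since only 6 of 18 same-numbered pairs correlated above 0.1 (r from -0.0998 to 0.371) and 0 of 12 libraries correlated best with their own number in every other group.

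Over all genes, library size alone gave 659 higher and 848 lower genes in parental cells (829 and 611 with TMM), 3823 and 378 between the lines after vehicle (2511 and 896), 5223 and 555 after oxamate (3340 and 1667), and 1105 and 205 for the responses (728 and 369). In resistant cells 365 genes became 231 with DESeq2 and 209 at a mean count of at least 25. A test against 1.5-fold itself left 376, 6, 1999 and 258 genes for parental, resistant, between-line (vehicle) and response comparisons (1440, 365, 3407 and 1097), and kept the member counts of 1, 0, 1, 2 and 0. PFKFB1, FBP1, FBP2 and LDHB had too few counts to be tested, unlike the members, each of which had at least 579 counts per library.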
